A study of Mus musculus with 6 samples.

Results

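The cluster of miR-221 and miR-222 is a pair of microRNA (miRNA) genes that lie side by side on the mouse X chromosome and are the source of 4 mature miRNAs, miR-221-3p, miR-221-5p, miR-222-3p and miR-222-5p. Its members in the data were the read sequences that the authors had labelled with one of these 4 names, which were 1069 of 143934 sequences: 395 of miR-221-3p, 19 of miR-221-5p, 632 of miR-222-3p and 23 of miR-222-5p. The cluster was selected on the RPM of miR-221-3p at both ages in these same libraries, so the age difference of miR-221-3p and its reads is given as a description, and nothing rests on a test of it. Small RNAs were sequenced that were bound to Argonaute (Ago) proteins in cortex and hippocampus combined from BL6 mice. The 3 libraries of the 2M group came from mice of 2 months and the 3 of the 18M group from mice of 18 months. Per the study's methods these were male C57BL/6J mice, and the labels name no treatment or engineered allele in either group. Ago proteins are the core of the RNA-induced silencing complex (RISC), and they were pulled down with a peptide of GW182, a protein that binds them. The labels number the replicates but do not say whether each library is 1 animal, so p-values measure the spread between these libraries.

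A miRNA gene is transcribed as a long RNA from which a hairpin is cut, and a second cut releases a duplex of a strand from the 5' side (the 5p arm) and a strand from the 3' side (the 3p arm). Ago keeps mostly one strand, which then pairs with target mRNAs through its seed, the bases from position 2 to position 8. miR-221 and miR-222 are best known for targeting the cell cycle inhibitor p27 (Cdkn1b) and the receptor KIT, for their expression in endothelial and smooth muscle cells, and for high levels in many tumours. miR-221 is also known to be induced by nerve growth factor in neuron-like cells.

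In GRCm38, Mir221 lay at chrX:19146294-19146388 and Mir222 at chrX:19146893-19146971, both on the minus strand, with 504 bp between the hairpins. No other annotated gene of either strand overlapped the 678 bp that hold both. The nearest gene upstream on the same strand was Gm14636 (chrX:19156981-19167241), 10009 bp away. The mature sequences that RefSeq gives with GRCm38.p6 are shown because the members are compared through their seeds, which are in capitals.

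mmu-miR-221-3p: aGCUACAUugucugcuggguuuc

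mmu-miR-222-3p: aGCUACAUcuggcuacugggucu

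mmu-miR-221-5p: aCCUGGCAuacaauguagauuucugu

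The hairpins show where each arm lies, with the arms that RefSeq annotates in capitals.

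Mir221: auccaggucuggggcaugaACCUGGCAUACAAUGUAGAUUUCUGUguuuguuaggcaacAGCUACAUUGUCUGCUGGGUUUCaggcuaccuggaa

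Mir222: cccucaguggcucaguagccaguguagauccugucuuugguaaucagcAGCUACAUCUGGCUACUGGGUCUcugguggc

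Both 3p arms begin with the same 8 bases and so share a seed, while only 11 of their 23 positions are identical in all. Their reads can therefore be told apart beyond the seed, and 0 of the 1069 sequences carried a second miRNA label. No other miRNA hairpin held the first 15 bases of any of the 4 main reads. The 5p arms share no seed with each other or with the 3p arms.

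The libraries held 19272046 to 25080484 reads. The deposited values are in RPM, the reads of a sequence scaled to the same total in each library, and 3 reads correspond to at most 0.156 RPM. Of 1091 miRNA labels, 466 had a mean of at least 10 RPM, the limit for testing, and all 4 members were among them. miR-222-3p had a mean of 10718 RPM over the 6 libraries and ranked 22 among the miRNAs, between let-7g-5p and miR-136-5p. miR-221-3p ranked 29, between miR-30d-5p and let-7d-5p, with a mean of 8739 RPM. The 5p arms were far lower, with miR-222-5p at rank 375, between miR-322-3p and miR-28a-3p, and miR-221-5p at rank 381, between miR-544-5p and miR-186-3p. Each 3p arm was thus the strand that Ago held: the 5p arm made up 0.337% ± 0.0801 of miR-221 reads and 0.274% ± 0.0887 of miR-222 reads (SD, n = 6). The 5p share did not separate the ages for either miRNA (exact permutation test, two-sided, p = 0.5 for miR-221 and p = 0.4 for miR-222).

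The first question was how the 4 members differed between young and old brains. miR-221-3p was at 7952, 6110 and 6924 RPM in 2M replicates 1, 2 and 3, and at 8945, 12850 and 9653 RPM in 18M replicates 1, 2 and 3. All 18M libraries were above all 2M libraries, with 18M replicate 2 the highest. The mean was 6995 ± 923 RPM for the 2M group and 10483 ± 2080 RPM for the 18M group (SD, n = 3), and without 18M replicate 2 the log2 difference was 0.42 in place of 0.57. Of all tested miRNAs, 5.58% were without overlap and higher at 18M.

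miR-222-3p was at 9218, 10079 and 11099 RPM at 2M and at 10353, 11618 and 11943 RPM at 18M. Here the groups overlapped, since 18M replicate 1 lay below 2M replicate 3. The means were 10132 ± 941 and 11305 ± 840 RPM (SD, n = 3), and limma gave an adjusted p of 0.515 for a log2 fold change of 0.16 with an SE of 0.12.

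miR-221-5p, the passenger strand of miR-221, was at 30.6, 24.8 and 21.7 RPM at 2M and at 38.02, 28.0 and 27.2 RPM at 18M. The groups overlapped, and replicate 1 was the highest in each age (limma adjusted p = 0.488 for a log2 fold change of 0.26 with an SE of 0.19). miR-222-5p, the passenger strand of miR-222, was at 33.8, 19.0 and 44.2 RPM at 2M and at 28.7, 24.4 and 24.9 RPM at 18M. The 2M libraries enclosed all 18M libraries and held both the lowest and the highest value. Its log2 fold change was -0.23 with an SE of 0.29 (adjusted p = 0.736 by limma), and it was 0.03 without 2M replicate 3 and -0.56 without 2M replicate 2.

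**Figure D1:**
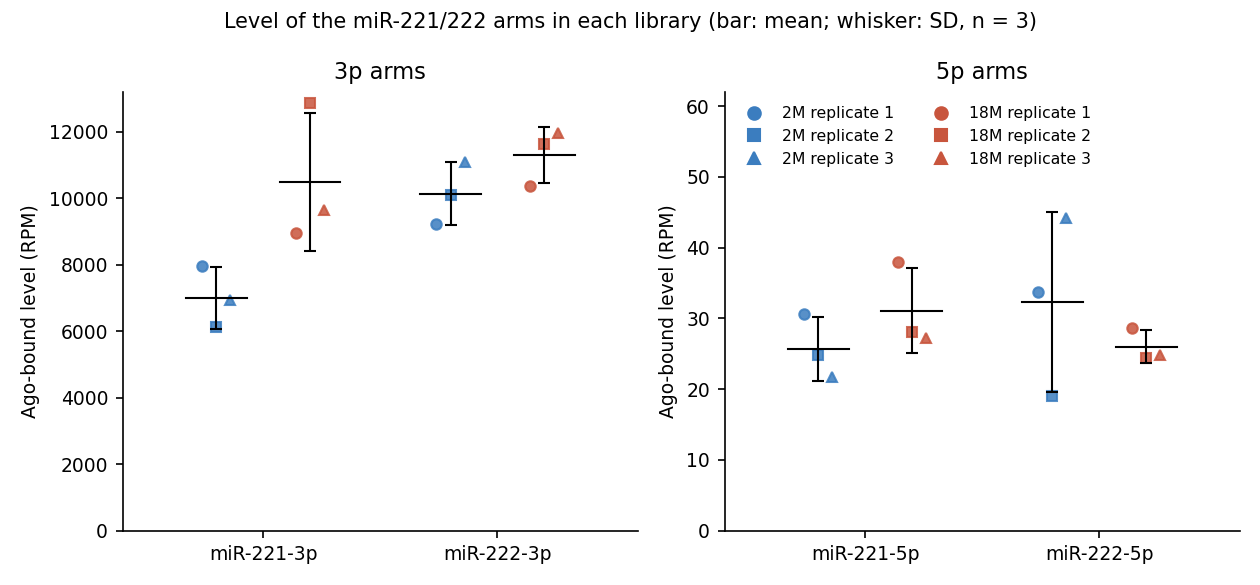
Level of each member in RPM (y axis, linear, from 0) in the 3 libraries of 2M and the 3 of 18M, with the 3p arms on the left and the 5p arms on the right; horizontal bars are means and whiskers are SD (n = 3). The 18M libraries lie above all 2M libraries for miR-221-3p, between 8945 and 12850 RPM, whereas the ages overlap for the other members.

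Of the 3 members other than miR-221-3p, 0 had an adjusted p under 0.05 with limma, where 3.22% of all tested miRNAs did. The count was also 0 with edgeR, which called 14 of 466 tested miRNAs, and with DESeq2, which called 9.23%. At an unadjusted p under 0.05, the count for these 3 members was 0 with each of the 3 tools. Over all tested miRNAs it was 17.0% with limma, 78 of 466 with edgeR and 19.3% with DESeq2.

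The balance between both 3p arms was compared within each library. miR-222-3p made up 53.7%, 62.3% and 61.6% of the reads of both 3p arms at 2M and 53.6%, 47.5% and 55.3% at 18M. miR-221-3p was the more abundant arm only in 18M replicate 2. The share was 59.2% ± 4.77 at 2M and 52.1% ± 4.12 at 18M (SD, n = 3), and the groups overlapped because 2M replicate 1 lay below 18M replicate 3 (exact permutation test, two-sided, p = 0.2, adjusted p = 0.75 over 15 measures). The smallest p that 3 against 3 libraries allow is 0.1.

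Reads that carried the 6-base form of the shared seed, GCUACA at positions 2 to 7, added up to 17011, 16008 and 17848 RPM at 2M and 19153, 24282 and 21410 RPM at 18M. They made up 1.93% of all reads, and 98.3% to 98.4% of them in each library came from the cluster. No other miRNA label had this seed in its main read. Since miR-221-3p gave the larger part of the gain, the separation of the ages in this sum rests on the same contrast by which the cluster was chosen.

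The deposited table also gives each 6mer seed a viability, which the authors name as the percent of cells of 3 mouse lines that outlive an siRNA carrying the seed. The values of 5 seeds lie above 100, so the measure is read here as a score. It is a property of the seed and not a measurement in the brain. The seed of both 3p arms, GCUACA, had a viability of 63.7, near the median of 63.9 over the 4032 seeds in the table. The seed of miR-221-5p, CCUGGC, had 12.9, with 2.60% of seeds below it, and that of miR-222-5p, GCUCAG, had 77.3. The RefSeq entries used here hold no mature miR-222-5p, so GCUCAG is the seed of its most abundant read. A seed of low viability is called toxic in the study, and of the 4 members miR-221-5p, held by Ago at a mean far below the 3p arms, came closest to that.

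The next question was whether the change in miR-221-3p sat in particular isomiRs, the length and end variants of a miRNA. Of the 1069 sequences, 59 had a mean of at least 10 RPM, namely 22 of miR-221-3p, 35 of miR-222-3p and 1 of each 5p arm. Of the 35 of miR-222-3p, 0 had an adjusted p under 0.05 with limma, where 0.366% of all 3281 tested sequences did, and 9 had an unadjusted p under 0.05, where 13.0% of all sequences did. At an adjusted p under 0.05, DESeq2 called 3 of these 35 and 4.6% of all sequences. Neither 5p read was called by either tool. Of the 59, 58 had a higher mean at 18M, where 52.6% of all tested sequences did, and groups did not overlap for 17 of the 22 and 15 of the 35, where 11.5% of all tested sequences were without overlap and higher at 18M. The median log2 fold change was 0.64 (0.13 to 1.17) over the sequences of miR-221-3p and 0.20 (0.03 to 0.73) over those of miR-222-3p, against 0.02 over all tested sequences. The sequences of a miRNA are not independent of each other or of its total, so these counts describe how evenly the change was spread and add no support to it.

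The 5 most abundant reads of each 3p arm are printed because they show where the arms end. Capitals mark a base added at the 3' end that the hairpin does not have, and T stands for U as in the deposited table.

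miR-221-3p read 1: agctacattgtctgctgggttt

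miR-221-3p read 2: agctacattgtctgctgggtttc

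miR-221-3p read 3: agctacattgtctgctgggtt

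miR-221-3p read 4: agctacattgtctgctgggtttT

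miR-221-3p read 5: agctacattgtctgctgggt

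miR-222-3p read 1: agctacatctggctactgggt

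miR-222-3p read 2: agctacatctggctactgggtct

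miR-222-3p read 3: agctacatctggctactggg

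miR-222-3p read 4: agctacatctggctactgggtc

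miR-222-3p read 5: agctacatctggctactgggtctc

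The main read of miR-221-3p is 22 nt long, 1 base shorter than the RefSeq form, and held 50.7% of its label. The RefSeq form was read 2, with 21.1%. Read 2 was at 1666, 1079 and 1851 RPM at 2M and at 1945, 2634 and 1872 RPM at 18M. Read 4, the main read with an added T, was at 453, 392 and 304 RPM at 2M and at 466, 667 and 570 RPM at 18M. All 5 reads of miR-221-3p were higher in every 18M library than in every 2M library, with log2 fold changes between 0.37 (read 3) and 0.66 (read 1).

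The main read of miR-222-3p is 21 nt long, 2 bases shorter than the RefSeq form, and held 31.4% of its label, while the RefSeq form was again read 2, with 25.4%. Read 1 was at 2762, 3417 and 3566 RPM at 2M and at 3285, 3358 and 3830 RPM at 18M. Read 2 was at 2527, 2276 and 2834 RPM at 2M and at 2543, 3246 and 2939 RPM at 18M. The ages overlapped for all 5 reads of miR-222-3p, whose log2 fold changes lay between 0.03 (read 4) and 0.19 (reads 2 and 3).

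Although both 3p arms share a start, a seed and a locus, their 3' ends differed in every library. The last templated base, counted from the main start, was position 22 in 58.1% ± 4.64 and position 23 in 23.9% ± 3.51 of miR-221-3p reads (SD, n = 6). For miR-222-3p it was position 21 in 35.2% ± 1.54, position 23 in 27.9% ± 2.12, position 20 in 11.4% ± 1.09 and position 22 in 10.6% ± 0.542. miR-221-3p thus had a single preferred end, whereas miR-222-3p had a pair of ends with a dip between them.

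The lengths of the reads gave the same picture. Reads of 22 nt made up 53.0% ± 4.22 of miR-221-3p and 11.0% ± 0.425 of miR-222-3p, a difference of -41.9 points (miR-222-3p minus miR-221-3p), lower in 6 of 6 libraries. Reads of 21 nt made up 7.03% ± 0.818 of miR-221-3p and 34.8% ± 1.69 of miR-222-3p, a difference of 27.8 points, higher in 6 of 6. Reads of 20 nt (4.71% against 8.76%) and of 24 nt (4.9995% against 6.94%) were also more frequent in miR-222-3p in 6 of 6 libraries, while reads of 23 nt (29.1% against 31.1%) were so in 5 of 6. The mean length was 22.2 nt ± 0.0371 for miR-221-3p and 22.0 nt ± 0.0969 for miR-222-3p. An exact sign-flip permutation test over the 6 libraries, two-sided, gave p = 0.03125 for the mean length and for reads of 20, 21, 22 and 24 nt, the smallest p that 6 libraries allow (0.0469 adjusted over 9 measures), and p = 0.219 for reads of 23 nt.

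**Figure D2:**
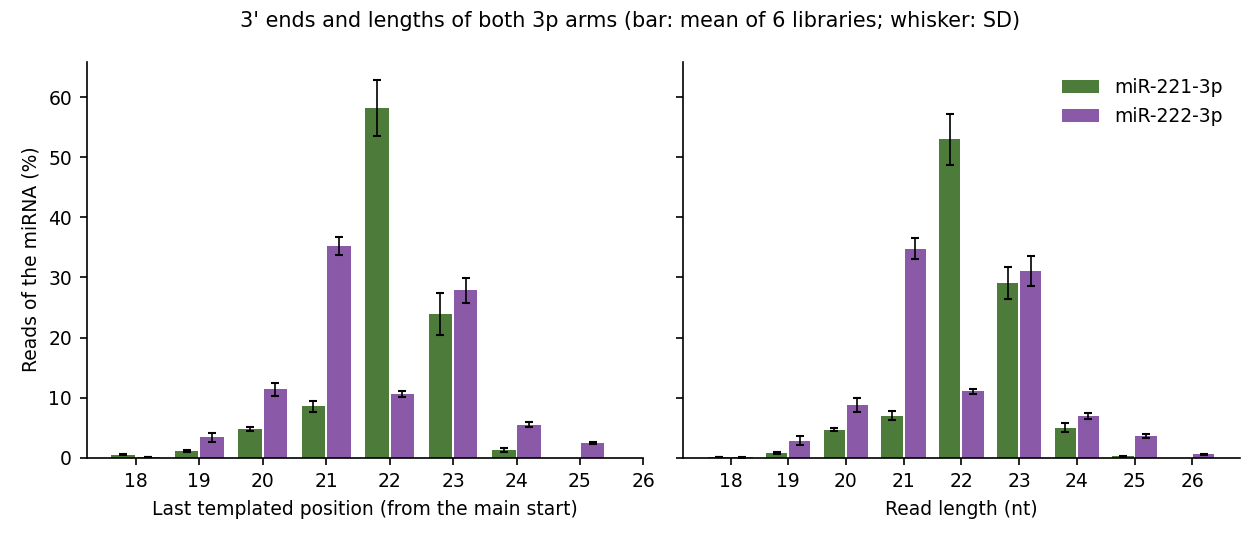
Percent of the reads of miR-221-3p (green) and miR-222-3p (purple) by the last base that matches the hairpin, counted from the main start (left), and by read length in nt (right); bars are means of the 6 libraries and whiskers are SD. miR-221-3p peaks at position 22 with 58.1%, and miR-222-3p at positions 21 and 23 with 35.2% and 27.9%.

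The arms also differed in the kind of base added to their 3' end. Such additions are made after cutting by terminal nucleotidyl transferases, and here a tail was 1 to 3 bases that follow the last match to the hairpin. The share of reads with a tail was 14.3% ± 0.421 for miR-221-3p and 14.6% ± 1.15 for miR-222-3p (SD, n = 6; exact sign-flip permutation test, two-sided, p = 0.656), near the middle of the range over all miRNAs, whose median was 11.7%. Tails that began with T made up 8.94% of miR-221-3p reads (8.35% to 9.77%) and 3.14% of miR-222-3p reads (2.70% to 3.46%), so they were more frequent in miR-221-3p in 6 of 6 libraries. Tails that began with A made up 4.06% of miR-221-3p reads (2.86% to 4.57%) and 10.9% of miR-222-3p reads (9.31% to 11.9%), more frequent in miR-222-3p in 6 of 6 libraries. These shares by base were chosen after the data were seen and were not tested. A base is counted as a tail only where the hairpin has another base, so the hairpins' own bases limit which additions can be seen at each end.

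The mean length, the main start and the share of tails overlapped between the ages for both 3p arms. The mean length of miR-221-3p was 22.2 nt at both ages and that of miR-222-3p was 22.0 nt at both, with differences of -0.0130 and 0.00346 nt. The tail share of miR-222-3p was 15.02%, 13.0% and 13.4% at 2M and 15.5%, 15.9% and 14.7% at 18M. The groups overlapped through 2M replicate 1 (13.8% ± 1.07 and 15.4% ± 0.601, SD, n = 3; exact permutation test, two-sided, p = 0.2, adjusted p = 0.75). The tail share of miR-221-3p was 14.2% ± 0.310 at 2M and 14.3% ± 0.577 at 18M (p = 0.8 by the same exact test).

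The 5' end sets the seed, so the 5' starts were compared next. The main start held 98.3% ± 0.0510 of miR-221-3p reads and 96.7% ± 0.0854 of miR-222-3p reads (SD, n = 6), a difference of -1.65 points, lower in 6 of 6 libraries (exact sign-flip permutation test, two-sided, p = 0.03125, 0.0469 adjusted). The most frequent other start of miR-222-3p lay 2 bases upstream, with 1.14% of reads (1.07% to 1.26%), against 0.00160% in miR-221-3p. Its main read is printed with the shifted seed (positions 2 to 8) in capitals, beside the main read of the usual start.

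miR-222-3p, main start: aGCTACATctggctactgggt

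miR-222-3p, start 2 bases upstream: gCAGCTACatctggctactgggt

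Both arms also had reads that began 1 base downstream, with the 6mer seed CUACAU (0.744% of miR-221-3p and 0.695% of miR-222-3p), and 1 base upstream, with AGCUAC (0.168% and 0.858%). The downstream start of miR-221-3p lay between 0.734% and 0.759% in all 6 libraries. The main start of miR-221-5p held 97.9% of its reads, and a start 1 base upstream held 1.73%.

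miR-222-5p stood apart from the other 3 members in its 5' starts. It had a pair of frequent starts, 3 bases apart, which are shown by the most abundant read of each with the seed (positions 2 to 8) in capitals.

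miR-222-5p, main start: gGCTCAGTagccagtgtagatcc

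miR-222-5p, start 3 bases downstream: tCAGTAGCcagtgtagatcctg

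The main start held 64.7% ± 11.3 of the reads (SD, n = 6), lower than the main start of all but 8.91% of the 393 miRNAs for which this could be measured (median 96.0%). A rarer start 2 bases downstream, with the 6mer seed UCAGUA, held 2.46%. The start 3 bases downstream, whose 6mer seed CAGUAG has a viability of 75.4, held 26.5%, 53.1% and 17.5% of the reads at 2M and 30.9%, 32.3% and 35.7% at 18M. The highest and the lowest share both came from 2M libraries, and their Wilson 95% intervals, 48.7% to 57.6% of 476 reads and 15.1% to 20.03% of 928 reads, did not overlap. Intervals cover counting error only, because they treat the reads of each library as independent and leave out the spread between libraries. The sources used here do not say whether reads carried molecular identifiers, so repeated copies of a molecule may be among the counts.

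In RPM, the main start of miR-222-5p was at 24.1, 8.49 and 34.4 in 2M replicates 1, 2 and 3 and at 19.5, 16.2 and 15.03 in the 18M replicates, so its highest library was 4.05 times its lowest. The start 3 bases downstream was at 8.96, 10.1 and 7.72 RPM at 2M and at 8.87, 7.89 and 8.86 RPM at 18M, with a highest library 1.31 times the lowest. The wide spread of miR-222-5p among the 2M libraries thus lay in the reads of its main start. The share of the main start did not separate the ages (64.6% ± 17.5 and 64.8% ± 3.84, SD, n = 3; exact permutation test, two-sided, p = 1). These RPM by start were computed after the shares had been seen.

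**Figure D3:**
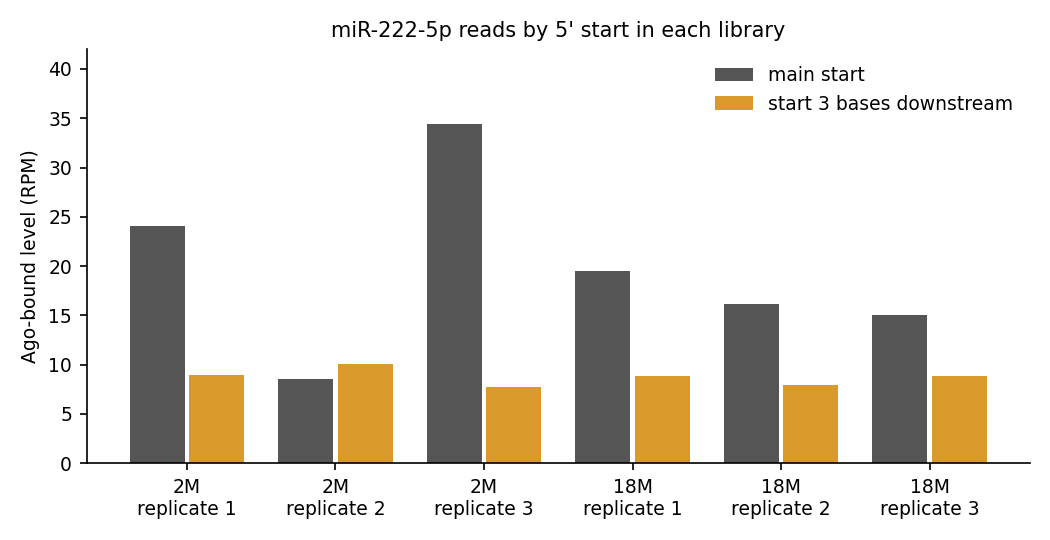
Level in RPM (y axis, linear, from 0) of miR-222-5p reads with the main start (grey) and with the start 3 bases downstream (orange) in each library. The main start ranges from 8.49 to 34.4 RPM and the downstream start from 7.72 to 10.1 RPM.

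Of the 15 measures of read composition compared between the ages (arm shares, main start, tail share and mean length), the mean length of miR-221-5p was the 1 whose groups did not overlap. The mean length was 22.26, 22.59 and 22.72 nt at 2M and 22.05, 22.20 and 22.06 nt at 18M, and every 18M library was below every 2M library. The means were 22.5 nt ± 0.239 and 22.1 nt ± 0.0820 (SD, n = 3), a difference of -0.422 nt (exact permutation test, two-sided, p = 0.1, the smallest p possible, adjusted p = 0.75 over 15 measures). The mean length did not overlap for 19.1% of the 466 tested miRNAs, and it was shorter at 18M without overlap for 12.2%. In size the difference of miR-221-5p ranked 1 of 466, and the median difference over all these miRNAs was -0.00738 nt. This rank was looked up after the difference had been seen. It takes no account of counting error, and miR-221-5p had 455 to 733 reads per library.

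The difference lay on both sides of the main read of 22 nt, which held 53.4% ± 9.53 at 2M and 54.7% ± 4.65 at 18M. Reads of at most 21 nt, a class chosen after the data were seen, made up 12.4%, 11.7% and 10.8% of miR-221-5p at 2M and 24.01%, 22.8% and 28.7% at 18M. The lowest 18M share had a Wilson 95% interval of 19.8% to 26.2% (657 reads) and the highest 2M share one of 10.1% to 15.2% (643 reads). The same class made up 18.1%, 19.96% and 17.0% of miR-222-5p at 2M and 22.8%, 20.8% and 27.8% at 18M, so it was higher at 18M without overlap in both 5p arms, by 13.5 points in miR-221-5p and 5.42 points in miR-222-5p. Of the tested miRNAs, 11.2% were higher at 18M without overlap in this share. The difference between the 5p arms was not tested. Reads of at least 23 nt made up 23.3%, 38.7% and 42.9% at 2M and 16.0%, 24.4% and 19.97% at 18M, where 2M replicate 1 lay within the range of the 18M libraries.

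The most abundant reads of miR-221-5p are shown because the lengths differ by their last bases only, with the seed in capitals.

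miR-221-5p, 21 nt: aCCTGGCAtacaatgtagatt

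miR-221-5p, 22 nt: aCCTGGCAtacaatgtagattt

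The read of 21 nt was at 3.38, 2.47 and 1.62 RPM at 2M and at 7.57, 5.50 and 5.94 RPM at 18M. These levels are above 3 reads in each library but below the limit of 10 RPM for testing. The 22 nt read was at 19.2, 12.1 and 9.77 RPM at 2M and at 22.6, 14.4 and 13.9 RPM at 18M, and the ages overlapped. Of all 4 members, miR-221-5p also had the fewest tails, on 1.90% of its reads, a share under that of all but 3.56% of the 393 miRNAs. The authors had removed rare sequences, and miR-221-5p had 455 to 733 reads per library, so rare tails may be missing from this share.

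**Figure D4:**
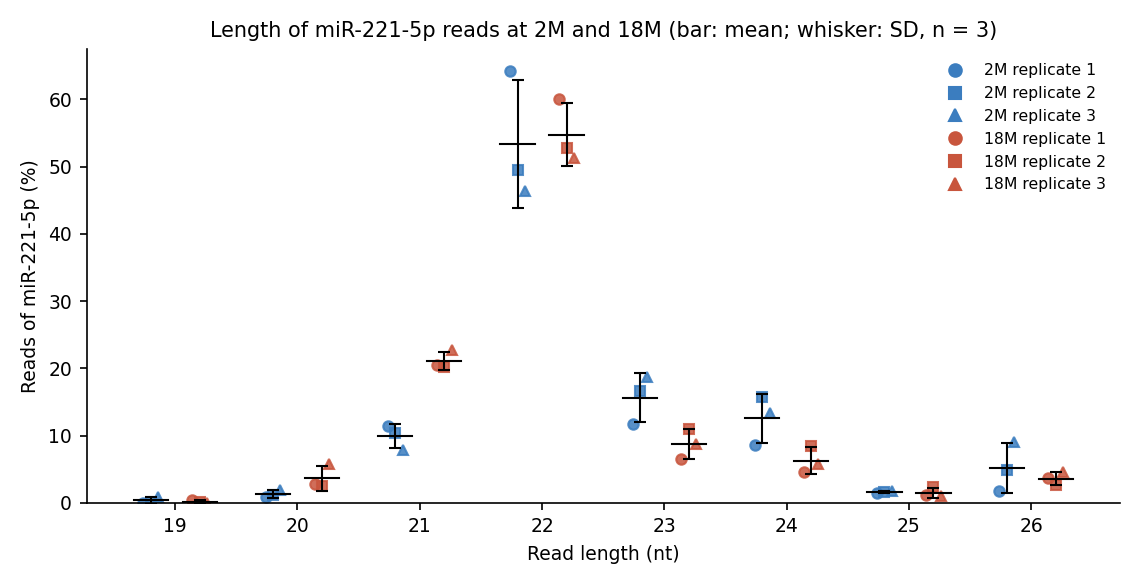
Percent of miR-221-5p reads (y axis) of each length in nt (x axis) in the 3 libraries of 2M (blue) and the 3 of 18M (red); horizontal bars are means and whiskers are SD (n = 3). Reads of 21 nt lie at 7.91% to 11.4% at 2M and at 20.2% to 22.7% at 18M, while reads of 22 nt overlap.

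To see which miRNAs kept the most constant ratio to each 3p arm over the 6 libraries, the SD of the log2 ratio was taken for the other 465 tested miRNAs. It is low where both miRNAs vary together and also where both vary little. The lowest values for miR-221-3p were those of miR-700-3p (0.17), miR-3102-3p (0.18), miR-7044-3p (0.18), miR-9-5p (0.18) and let-7a-1-3p with let-7c-2-3p (0.19), against a median of 0.49. miR-222-3p, cut from the neighbouring hairpin, ranked 61 of 465 by this measure, with an SD of 0.33, below the median. miR-221-5p, cut from the same hairpin, ranked 98. The pattern of miR-221-3p includes the age difference by which the cluster was chosen. The lowest values for miR-222-3p were those of miR-328-3p (0.06), miR-16-5p (0.09), miR-146a-5p (0.10), miR-877-3p (0.11) and miR-1198-5p (0.11), with a median of 0.29, and miR-221-3p ranked 274. The points share their libraries and the scaling to RPM.

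In bulk tissue, fewer cells of a type and less RNA per cell cannot be told apart, and miR-221 and miR-222 are known in vessels and blood cells. Marker miRNAs were therefore set beside the levels of the cluster. Of the 24 tested members of the 6 lists, 0 had an adjusted p under 0.05 with limma, edgeR or DESeq2. Over all tested miRNAs, 3.22% did with limma, 14 of 466 with edgeR and 9.23% with DESeq2. With limma, 3 list members had an unadjusted p under 0.05, where 17.0% of all tested miRNAs did. These were miR-132-3p of the neuron list, miR-145a-5p of the vessel list and miR-150-5p of the immune and microglia list, all lower at 18M. With edgeR and with DESeq2 the count was 2, miR-150-5p and miR-9-5p of the neuron list. Over all tested miRNAs it was 78 of 466 with edgeR and 19.3% with DESeq2. miR-9-5p was higher at 18M, with means of 35088 RPM at 2M and 49306 RPM at 18M, and its groups overlapped. The vessel list, with miR-126a-3p its most abundant member, summed to 11443 to 17061 RPM at 2M and 10158 to 13662 RPM at 18M, and its median log2 fold change was -0.21 over 6 of 6 members tested. Here 1 member was higher at 18M. The erythrocyte list, led by miR-451a, had 3 of 5 members tested and a median of -0.60, with sums of 2550 to 3689 RPM at 2M and 1307 to 2892 RPM at 18M. The immune and microglia list, led by miR-150-5p, had 5 of 6 members tested and a median of -0.22, with 2 members higher at 18M. Its sums did not overlap, at 3776 to 4111 RPM at 2M and 2834 to 3402 RPM at 18M. The ages did not overlap for miR-150-5p itself, at 2852 to 3124 RPM at 2M and 2068 to 2431 RPM at 18M. They overlapped for each other member of this list. The medians were -0.09 for oligodendrocytes (3 of 3 members tested), 0.07 for neurons (5 of 5) and -0.03 for muscle (2 of 3), against -0.07 over all tested miRNAs, and the sums of these lists overlapped. The neuron list, led by miR-124-3p, summed to 236303 to 251786 RPM at 2M and 211301 to 268408 RPM at 18M. None of these lists was without overlap and higher at 18M as miR-221-3p was, and their part in the levels of the cluster was not tested.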

How the data were processed

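Small RNAs bound to Ago proteins of mouse cortex with hippocampus were sequenced on an Illumina HiSeq instrument after gel extraction by size, in 3 libraries of 2M and 3 of 18M. Per the labels and the study's methods, the authors trimmed the reads with Trim Galore (version not given in the sources used here), collapsed identical reads, removed rare ones and assigned the sequences to mouse small RNA classes in the SPOROS pipeline. In the deposited table each read sequence has an RPM in each library. The deposited viability of a 6mer seed, named by the authors a percent of surviving cells, is used as a score, since 5 seeds lie above 100, and is the same for every read of that seed. A second annotation column of the table served only for the reads without a miRNA label.

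Each of the values (100%) was a whole multiple of the RPM of 1 read, to 0.02 of a read, which gave the whole reads back. Libraries were not duplicates (chi-square per degree of freedom at least 260). Groups came from titles. Reads were added up per miRNA label and tested with limma 3.58.1 (trend, R 4.3.3) on log2(RPM + 1), which understates changes of low features, where the mean reached 10 RPM, and with Benjamini-Hochberg adjustment at 0.05. On data simulated with 4-fold changes, this fit recovered 40 of 40 changed miRNAs and 200 of 200 changed read sequences. It also called 2 of 428 unchanged miRNAs and 13 of 3067 unchanged sequences. The simulation gave every feature the same dispersion and held no smaller changes, so it does not show that differences as small as those of the members would be found. Reads were placed on the RefSeq hairpins by their first 15 bases. Per-library shares were compared with exact permutation tests. Wilson intervals are at 95% and cover counting error only.

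Alternatives were other pseudocounts (0.1 and 5) and filters (1 and 100 RPM), median-of-ratios scaling, limma without trend, edgeR 4.0.16, DESeq2 1.42.0, a replicate block, other read sets and leaving out each library. Named reads were the 5 most abundant of each 3p arm and up to 2 of each 5p arm. The main read was also named for 5' starts with at least 1% of their label. Exceptions were the starts of miR-221-5p 1 base upstream and of miR-222-5p 2 bases downstream. Named miRNAs were neighbours in level, the 5 with the lowest SD of the log2 ratio to each 3p arm, and leading list members. The members and lists were chosen with earlier results of these data known. Tables and figures were made with matplotlib 3.10.9, scipy 1.17.1, pandas 2.3.3 and numpy 2.4.6 under Python 3.11.15.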

Additional observations from a re-analysis of the deposited data

Results flagged for a closer look

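The share of 22 nt reads in miR-222-3p minus that in miR-221-3p was -33.9 points in 2M replicate 3 and -45.4 to -41.9 points in the other 5 libraries, which set that library apart by Dixon's test. In it, 44.8% of miR-221-3p reads were 22 nt long. Among the 9 such differences this was the 1 past the critical value, and chance sets apart about 1 in 20 groups.

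Some reads outside all comparisons were assigned to these hairpins by annotation, and some reads without a miRNA label matched a hairpin by sequence. The table's second annotation column assigned 788 further sequences without a miRNA label to mir-221 or mir-222, with a mean of 346 RPM over the 6 libraries (288 to 443 RPM), or 1.69% to 1.77% of the reads of the cluster. Mean levels were 305 ± 15.2 RPM in the 2M group and 388 ± 49.6 RPM in the 18M group (SD, n = 3).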

How the results depend on the processing

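The main limits are the 3 libraries per age, with which an exact test cannot fall under 0.1, and the low level of the 5p arms, 455 to 928 reads per library. The log2 fold changes of miR-221-3p, miR-221-5p and miR-222-3p kept their sign under every alternative run, with ranges over the left-out libraries of 0.42 to 0.68, 0.11 to 0.39 and 0.09 to 0.23. The limma, edgeR and DESeq2 adjusted p ranged from 0.369 to 0.773 for miR-222-3p, from 0.387 to 0.784 for miR-221-5p and from 0.239 to 0.965 for miR-222-5p. The cause of the changes listed here was not tested beyond the fewer features or libraries that an alternative holds.

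The number of miRNAs called, 15, was 2 with at least 100 RPM, 43 with DESeq2 and 0 to 15 with a library left out. The number of read sequences called, 12, was 20 at a limit of 1 RPM, 0 at 100 RPM (92 at an unadjusted p under 0.05), 151 with DESeq2 and 0 in each fit that left out a library (258 to 564 unadjusted). Within the cluster the counts were 0 in every fit but DESeq2, which called 1 miRNA (miR-221-3p) and 8 read sequences (5 of miR-221-3p and 3 of miR-222-3p). Those of miR-221-3p rest on the contrast by which the cluster was chosen and are no evidence of it. With a replicate block, 1 miRNA and 0 read sequences were called (348 unadjusted). Libraries with the same number did not deviate together (correlations of -0.17, -0.22 and -0.10), so the numbers were not taken as pairs, and the block changed no call of a cluster member.

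Several age differences that were small beside their spread changed sign with a library left out. For miR-222-5p they ranged from -0.56 to 0.03 in the log2 fold change (0.0309 without 2M replicate 3), from -9.78 to 6.75 points in the main start and from -0.779 to 1.94 points in the tail share. The ranges were -0.0110 to 0.0514 points (main start), -0.138 to 0.439 points (tail share) and -0.0438 to 0.0111 nt (mean length) for miR-221-3p. They were -0.356 to 0.386 points for the tail share of miR-221-5p and -0.0531 to 0.0658 nt for the mean length of miR-222-3p. With reads that match the hairpin over their whole length, the mean length differed by 0.000124 nt for miR-221-3p and by -0.00469 nt for miR-222-3p. With sequences of at least 60 reads, the main start of miR-222-5p differed by -0.623 points. The mean length difference of miR-221-5p stayed negative in all these alternatives, from -0.555 to -0.323 nt with a library left out.

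The differences between miR-222-3p and miR-221-3p within libraries kept their sign with a library left out, but 5 libraries cannot give a p under 0.0625. They ranged from -1.68 to -1.64 points for the main start, from -0.248 to -0.213 nt for the mean length, from 3.78 to 4.28 points for reads of 20 nt, from 27.4 to 28.0 points for 21 nt, from -43.5 to -41.2 points for 22 nt and from 1.72 to 2.21 points for 24 nt. The exception was the tail share, from -0.0496 to 0.602 points, negative without 18M replicate 2.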
